A study of Homo sapiens with 21 samples.

Results

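The 10 genes described here encode the DNA-binding subunits of NF-kB and proteins that regulate the factor: NFKBIA, NFKBIB, NFKBIE, TNFAIP3 and BCL3 on the inhibitor side, and NFKB1, NFKB2, RELA, RELB and REL on the subunit side. BCL3 was counted on the inhibitor side, although its product can repress or activate. Genomic regions enriched for estrogen receptor beta (ER-beta) were taken when their summit lay within 50 kb of the body of one of the 10 genes. This choice left 7 of 2905 regions with ethanol, 49 of 26861 with estradiol and 16 of 10045 with LY500307. Regions of different treatments that overlapped were joined, which gave 51 sites.

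The regions came from chromatin immunoprecipitation followed by sequencing (ChIP-seq) in a derivative of the triple-negative breast cancer line MDA-MB-231 in which doxycycline switches on a copy of ER-beta, pulled down through its Flag tag. All cells had received doxycycline at 100 ng/ml for 24 h, followed by 3 h of ethanol as vehicle, of estradiol at 1 nM or of LY500307, a synthetic agonist selective for ER-beta. The dose of LY500307 is given as 1 nM in the sample titles and as 10 nM in the characteristics, so it is uncertain. For each treatment the labels list 4 ChIP and 3 input libraries, but the authors gave 1 pooled list of regions, so the spread between replicates is unknown and treatments were compared without a test. The receptor was present in every group through the same induced copy in the same line, and a list of regions cannot show which cells it came from.

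NF-kB is a family of dimeric transcription factors held in the cytoplasm by IkB proteins until a signal has these degraded, after which the freed dimers enter the nucleus and bind kappaB elements. Several of the genes switched on in this way encode the inhibitors themselves, which closes a negative feedback loop, and MDA-MB-231 cells are known for high basal NF-kB activity. Estrogen receptors bind DNA directly at estrogen response elements (EREs), inverted repeats of a half-site, and are also known to be tethered to DNA by other factors, among them AP-1 and NF-kB.

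The sequences printed here are a selection from the sites with an ERE or a kappaB element within 100 bp of a summit: those found with all 3 treatments, the NFKB2 promoter as the subunit promoter found with both ligands, and the TNFAIP3 site as the one with an ERE and an AP-1 element together. An ERE was GGTCANNNTGACC with at most 1 mismatch in its 10 fixed bases. A kappaB element was the strict 10-base form on either strand, with no mismatch. The stretches below are on the plus strand of hg38, with EREs, kappaB elements and AP-1 elements (TGACTCA or TGAGTCA) in capitals. The first 4 lines are from sites found with all 3 treatments.
SLC29A1 promoter in the NFKBIE window, ERE, chr6:44223891-44223919: caggctgcGGTCACGTTGACCtccgcaag
SLC35B2 promoter beside NFKBIE, ERE, chr6:44257749-44257777: gtcccagaGGTCATGGTGACCattgccat
BCL3 upstream, ERE with 1 mismatch, chr19:44742921-44742973: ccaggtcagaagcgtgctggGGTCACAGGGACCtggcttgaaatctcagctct
NFKBIA, kappaB, chr14:35403953-35403982: caggcgcccaGGGACTTTCCgcccccctcc
NFKB2 promoter, kappaB, chr10:102394462-102394490: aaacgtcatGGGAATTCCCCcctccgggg
NFKB2 promoter, kappaB, chr10:102394490-102394519: gggccgagaaGGGGCTTTCCcggccctgag
TNFAIP3 upstream, ERE with 1 mismatch and AP-1, chr6:137832230-137832302: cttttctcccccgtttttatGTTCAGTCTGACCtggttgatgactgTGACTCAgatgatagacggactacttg
The EREs of the SLC29A1 and SLC35B2 promoters matched all fixed bases, and were centred 14 and 9 bp from the estradiol summit.

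With estradiol, all 10 genes had at least 1 ER-beta region within 50 kb, where 74.5% of 19663 protein-coding genes did. With LY500307, 6 of the 10 genes had one (NFKBIA, NFKBIE, BCL3, NFKB2, RELA and RELB), against 49.1% of coding genes. With ethanol, the 4 genes with a region were NFKBIA, NFKBIE, BCL3 and RELA, against 22.7% of coding genes. The mean number of estradiol regions per gene was 4.9 over the 10 genes and 2.85 over all coding genes. These regions were spread unevenly. NFKBIE and RELA had 11 estradiol regions each, a number that 3.06% of coding genes reached or passed, BCL3 had 9 and NFKBIA had 6. NFKBIB had 1, RELB had 3, and TNFAIP3, NFKB1, NFKB2 and REL had 2 each. The windows of NFKBIE and RELA also hold 7 and 4 other coding genes, whereas no other coding gene reaches into the windows of NFKBIA and TNFAIP3. The number of regions did not simply follow the number of neighbours. The NFKBIB window holds 8 other coding genes, those of NFKB2 and RELB 5 each, that of BCL3 3, and those of NFKB1 and REL 1 each. At 31 of the 51 sites the nearest coding transcription start site (TSS) belonged to another gene.

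**Figure D1:**
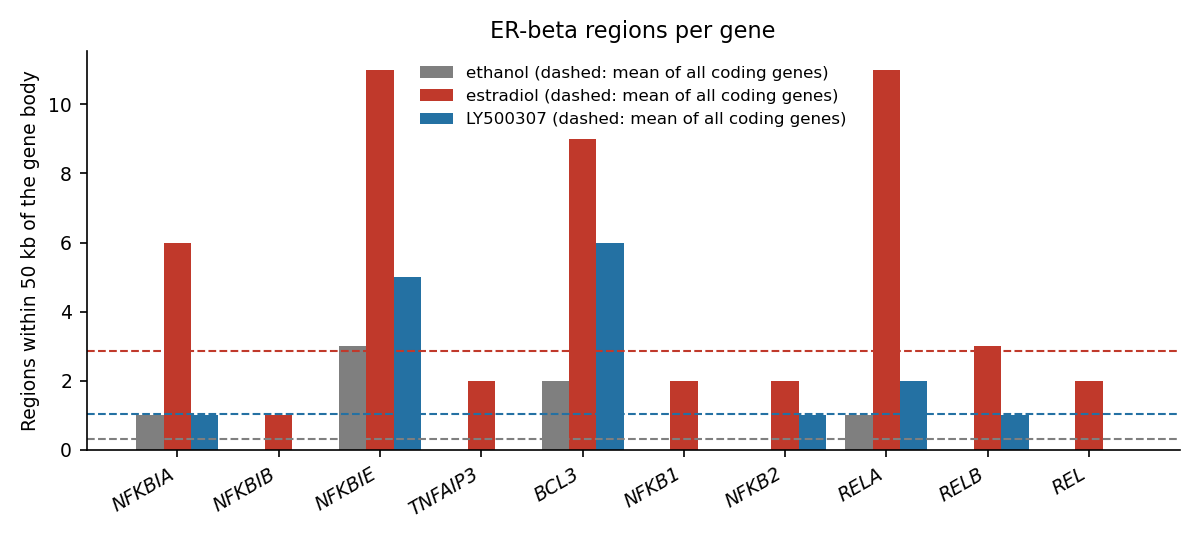
Number of ER-beta regions with a summit within 50 kb of each gene (y axis), as bars for ethanol, estradiol and LY500307, with dashed lines at the mean of all protein-coding genes. NFKBIE and RELA reach 11 estradiol regions and BCL3 reaches 9, while NFKBIB has 1.

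The highest folds stood near inhibitor genes, in the windows of NFKBIE, BCL3 and NFKBIA. This difference between the gene groups was not tested. Near TNFAIP3 and NFKBIB the highest estradiol folds were only 9.50 and 11.2. Of the 49 estradiol regions, 29 lay near the 5 inhibitor genes with a median fold of 11.6, and 20 lay near the 5 subunit genes with a median fold of 7.70. Fold here is the authors' ratio of pooled ChIP signal to the background around the summit. The highest estradiol fold was 110.7 near an inhibitor gene and 46.0 near a subunit gene. With LY500307, 12 regions lay near inhibitor genes (median fold 16.7) and 4 near subunit genes (median fold 7.16). With ethanol the numbers were 6 and 1. BCL3, whose product can also activate, had 9 of the 29 estradiol, 6 of the 12 LY500307 and 2 of the 6 ethanol regions counted near inhibitor genes. All 6 sites found with all 3 treatments were near inhibitor genes, namely 3 in the NFKBIE window, 2 in the BCL3 window and 1 in NFKBIA. The nearest coding TSS was the member's own at the NFKBIA site (estradiol fold 70.2) and at a BCL3 site (36.4). At the others it belonged to SLC29A1 (estradiol fold 110.7), CEACAM16 (101.8), HSP90AB1 (76.8) and SLC35B2 (46.7). The folds come from pools scaled separately, so the folds of 1 site under the 3 treatments are listed together, and their ratio is no measure of gain or loss.

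NFKBIA encodes IkB-alpha, the inhibitor that is resynthesised fastest after NF-kB activation. Its main site, at chr14:35403497-35404702, lay inside the gene, 0.729 kb after its canonical TSS. The summit was in intron 1 of the canonical transcript and in the promoter of alternative NFKBIA transcripts. The fold was 13.4 with ethanol (rank 442 of 2905), 70.2 with estradiol (rank 1361 of 26861) and 50.3 with LY500307 (rank 391 of 10045). It was the only member gene with a summit in one of its own promoters in the ethanol list. A kappaB element, printed above, was centred 52 bp from the estradiol summit, within 100 bp of the summit with all 3 treatments, and no ERE was found there. The other 5 NFKBIA regions were present with estradiol alone, at folds from 6.998 to 17.9, in intergenic DNA. Of these, 3 stood together 38.6 to 40.4 kb downstream of the TSS, and the farthest, at chr14:35364256-35364532 with a fold of 13.4, held an ERE with 1 mismatch.

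NFKBIE encodes IkB-epsilon, an inhibitor known for its delayed resynthesis. Its window held the strongest estradiol site near any of the 10 genes, at the promoter of SLC29A1, a nucleoside transporter gene, at chr6:44223522-44224156. The folds were 16.2 with ethanol (rank 316), 110.7 with estradiol (rank 445) and 50.4 with LY500307 (rank 386). This site carries the first ERE printed above and lies 41.7 kb downstream of the NFKBIE TSS but 0.070 kb from that of SLC29A1. An intergenic site at chr6:44237841-44238484 had folds of 17.1 with ethanol, 76.8 with estradiol and 71.9 with LY500307. With LY500307 it ranked 159 in the whole list, above the SLC29A1 promoter, while with estradiol it ranked 1148, below it. No ERE, kappaB or AP-1 element was found near its summits, and the nearest TSS, 7.99 kb away, was that of the chaperone gene HSP90AB1. A neighbouring region beginning at 44237098 reached 55.0 with estradiol and 11.6 with LY500307, and was missing from the ethanol list.

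The site closest to the NFKBIE gene itself, 412 bp past its end, was the promoter of SLC35B2, a Golgi nucleotide-sulfate transporter gene, at chr6:44257515-44257985. Its fold was 4.83 with ethanol (rank 2621 of 2905), 46.7 with estradiol (rank 2468 of 26861) and 13.8 with LY500307 (rank 2804 of 10045). Its percentile by fold was 9.76 in the ethanol list and 90.8 in the estradiol list. These lists differ in length, 2905 and 26861 regions, while the ranks, 2621 and 2468, were close. It was the only site near the 10 genes with both an ERE and a kappaB element. Beside it, a region in the 5' UTR of SLC35B2 (estradiol fold 4.96) held a kappaB element, as did one in an intron of SLC29A1 (estradiol fold 4.13). A region in intron 1 of SLC35B2 was listed with LY500307 alone (fold 4.95). The remaining 5 NFKBIE regions were present with estradiol alone, at folds of 5.60 to 13.4, and no region lay in the promoter of NFKBIE.

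BCL3 encodes a nuclear IkB protein that binds NF-kB subunits on DNA and can repress or activate. At 5 of its 9 sites the BCL3 TSS was the nearest one. In the promoter, the site 0.139 kb upstream of the TSS, at chr19:44748320-44748751, reached a fold of 56.3 under estradiol and 23.5 under LY500307. The promoter site at 0.967 kb had folds of 18.1 and 6.84, and neither was in the ethanol list. Upstream, the site 5.76 kb from the TSS, at chr19:44742563-44743146, was found with all 3 treatments at folds of 5.86 with ethanol, 36.4 with estradiol and 13.3 with LY500307. Its ERE was centred 2 bp from the estradiol summit. The strongest site of the window, at chr19:44718434-44719004 and 29.95 kb upstream, had folds of 22.3 with ethanol (rank 155), 101.8 with estradiol (rank 578) and 41.4 with LY500307 (rank 563). It held no ERE, kappaB or AP-1 element, and the nearest TSS, at 17.4 kb, was that of CEACAM16. A site 17.0 kb downstream, nearer to the ubiquitin ligase gene CBLC, stood at 65.9 with estradiol and 19.7 with LY500307, and one 6.46 kb upstream at 29.2 and 12.01. The remaining 3 regions were present with estradiol alone, at folds of 5.36 to 11.6.

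**Figure D2:**
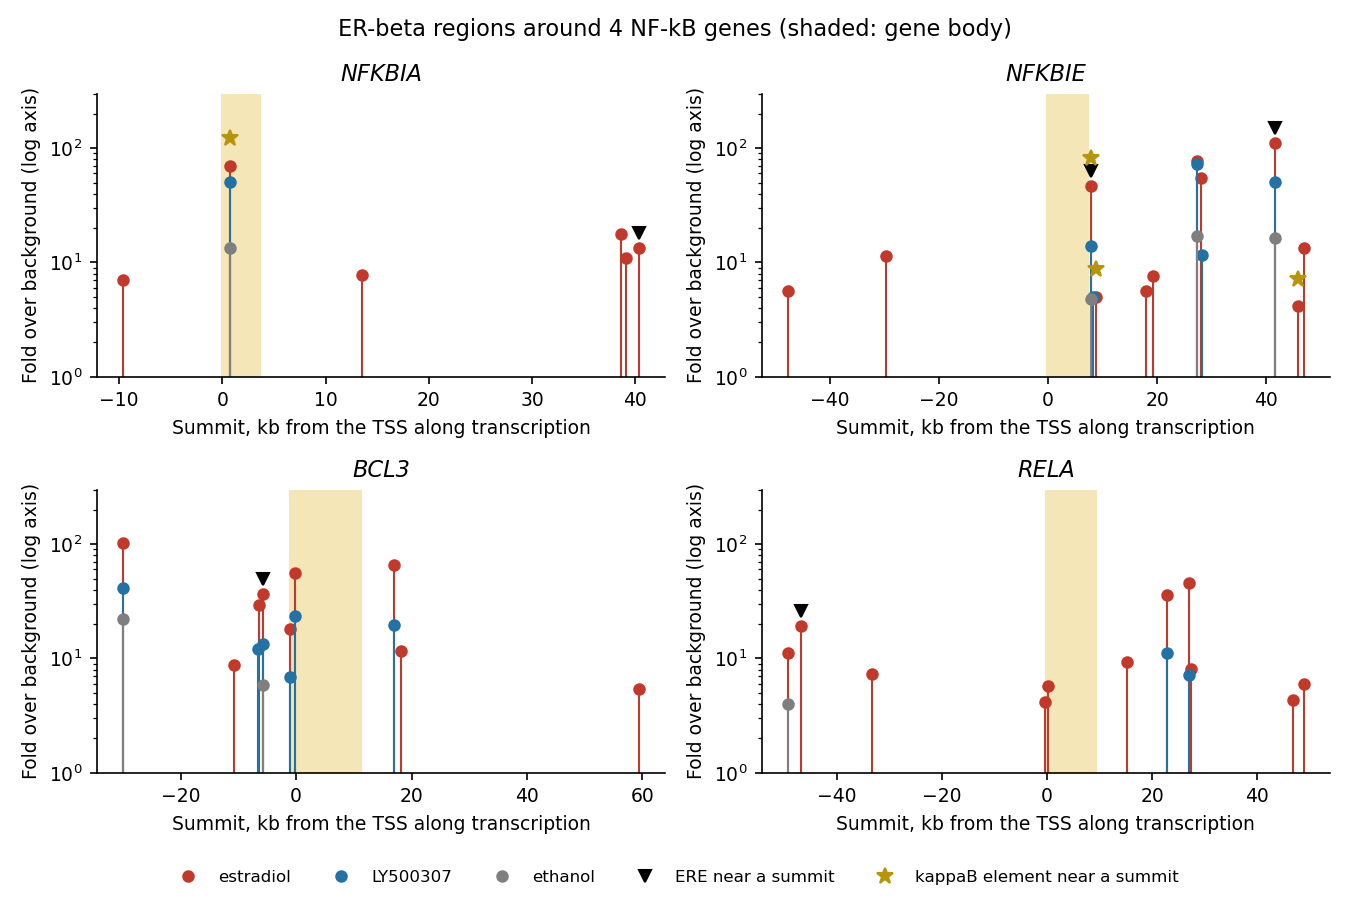
Position of each summit relative to the canonical TSS in kb along transcription (x axis) against fold over background (y axis, log scale) for NFKBIA, NFKBIE, BCL3 and RELA, with shaded gene bodies, 1 coloured point per treatment, and marks for an ERE or kappaB element. The tall sites of NFKBIE lie downstream of the gene, up to a fold of 110.7 with estradiol, while NFKBIA has 1 tall site within the gene and BCL3 has tall sites on both sides.

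TNFAIP3 encodes A20, a ubiquitin-editing enzyme that shuts off signalling upstream of the IkB kinases. Its 2 regions were present with estradiol alone, 39.7 kb upstream at a fold of 9.50 and 35.0 kb upstream at a fold of 8.50. Both held an AP-1 element, and the nearer one, at chr6:137832120-137832395, held an ERE centred 10 bp from its summit as well. No region was listed at the TNFAIP3 promoter or in the gene with any treatment. NFKBIB encodes IkB-beta, which is known to be less responsive to NF-kB itself. Its single region, with estradiol at a fold of 11.2, lay 48.0 kb from the TSS, in a promoter of HNRNPL, which encodes a splicing factor.

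Among the subunit genes, RELA had the most regions. RELA encodes the subunit with the transactivation domain that is the main partner in the classical pathway. Its promoter held 2 regions, present with estradiol alone, at folds of 5.77 and 4.15, the latter at rank 26502 of 26861. The strongest sites of the window lay in or at neighbouring genes, and which gene they act on was not tested. A site in intron 32 of PCNX3, at chr11:65635751-65636161, had a fold of 46.0 under estradiol and 7.12 under LY500307. The promoter of SIPA1, a gene for a GTPase-activating protein, had 36.1 and 11.2. Upstream, the promoter of the acetyltransferase gene KAT5 was listed with ethanol (fold 4.03, rank 2836 of 2905) and estradiol (fold 11.3) but not with LY500307, the only site of the 51 with that pattern. The other 6 estradiol regions of RELA had folds from 4.31 to 19.1.

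NFKB1 and NFKB2 encode precursors that are cut to DNA-binding subunits without a transactivation domain. The NFKB1 promoter had an estradiol region at a fold of 5.18, and a second region stood 7.57 kb upstream at a fold of 8.05. NFKB2 was the only subunit gene with an LY500307 region in its promoter, at chr10:102394228-102394680. Its fold was 6.998 under estradiol and 7.21 under LY500307, at ranks 18796 of 26861 and 6182 of 10045. This site held 3 matches to the kappaB element, of which a pair overlaps on opposite strands in the first NFKB2 sequence above. It was one of only 2 estradiol regions below a fold of 29.2 that were also found with LY500307, the other being the BCL3 promoter site at 18.1. The second NFKB2 region, at GBF1, had a fold of 8.77 with estradiol.

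REL encodes c-Rel, best known from lymphocytes, and had 2 estradiol regions, one in the promoter at a fold of 5.81 and one in intron 1 at 5.50. RELB encodes the partner of the NFKB2 product in the non-canonical pathway. None of its regions was in the gene or its promoter. The highest, at a fold of 13.8 with estradiol, lay at the promoter of CLPTM1 and held an ERE with 1 mismatch, shown here as an example from the subunit side.
CLPTM1 promoter in the RELB window, chr19:44953647-44953699: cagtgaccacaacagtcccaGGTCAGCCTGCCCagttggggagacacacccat
The other estradiol regions of RELB, at CLASRP, had folds of 6.35 and 9.38, and a second CLPTM1 region was listed with LY500307 alone at a fold of 6.0.

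At the promoters of the genes themselves (1000 bp upstream to 100 bp downstream of a TSS), an estradiol summit was present at 6 of 10 genes: NFKBIA, BCL3, NFKB1, NFKB2, RELA and REL. The share over all coding genes was 20.5%. With LY500307 the number was 3 of 10 (NFKBIA, BCL3 and NFKB2), against 7.19%, and with ethanol 1 of 10 (NFKBIA), against 2.92%. The estradiol promoter regions of NFKB1, NFKB2, RELA and REL stood low in their list, at percentiles by fold from 1.28 to 29.8. Those of NFKBIA and BCL3 reached 94.9 and 92.9. Promoters were common among all the regions near these genes: 26 of 49 estradiol summits (53.1%) lay within 1 kb of a coding TSS, against 32.9% of the estradiol regions within 50 kb of any coding gene.

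RefSeq promoter sequences (GRCh38.p14, windows from upstream of the start to just inside the transcript) were available for 8 of the 10 genes, and 5 of these held a strict kappaB element, against 973 of 15307 coding genes (6.36%). No ERE was found in these 8 windows, against 0.594% of all. The stretches below, on each gene's own strand, show where these elements stand relative to the ER-beta regions.
NFKBIA, chr14:35404801-35404850, minus strand: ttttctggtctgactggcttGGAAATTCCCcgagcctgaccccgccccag
TNFAIP3, chr6:137867192-137867213, plus strand: GGAAAGTCCCgtGGAAATCCCC
NFKB1, chr4:102501300-102501329, plus strand: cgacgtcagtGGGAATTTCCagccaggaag
REL, chr2:60881527-60881537, plus strand: GGGAAATTCCC
The NFKBIA element stands 81 bases before the RefSeq start, beyond the end of the estradiol region at 35404702, so the summit element of that gene is a different one. The REL element, 2 overlapping matches, lies inside the estradiol region at chr2:60881135-60881671. The TNFAIP3 pair lay 35.0 kb from the closest estradiol summit, and the NFKB1 region began at 102501606, past its element. In BCL3, the element stands just after the RefSeq start, and the estradiol region and the LY500307 region both overlapped that promoter window.

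Within each list, the sites near the 10 genes stood at different heights. The median percentile by fold was 84.8 with ethanol, 48.9 with estradiol and 68.7 with LY500307. Above the middle of their list stood 4 of 7 ethanol, 24 of 49 estradiol and 11 of 16 LY500307 regions. The lists differ in length, so equal percentiles stand for different ranks. The 7 ethanol folds ran from 4.03 to 22.3 with a median of 13.4, where the whole list had a median of 7.001. The 49 estradiol folds ran from 4.13 to 110.7 with a median of 9.38, against 9.50 in the whole list. For LY500307 the range was 4.95 to 71.9 and the median 12.7, against 8.46. Of the estradiol regions, 9 stood in the highest 10% of the list, with 4 in the NFKBIE window, 3 in that of BCL3, and 1 each at NFKBIA and RELA.

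**Figure D3:**
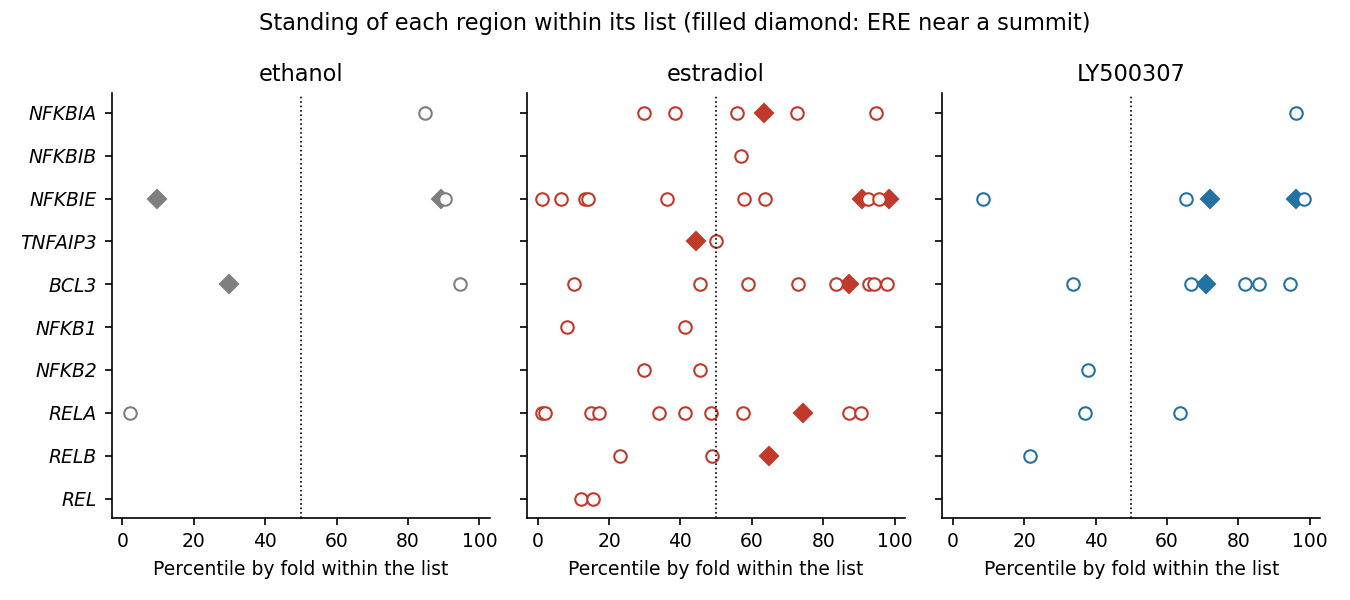
Percentile of each region by fold within its own list (x axis) for each gene (rows), in 3 panels for ethanol, estradiol and LY500307, with filled diamonds for sites with an ERE and a dotted line at the middle of the list. NFKBIE, BCL3, NFKBIA and RELA have points in the highest 10% with estradiol, while the points of NFKB1, NFKB2 and REL all lie below the middle.

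All 7 ethanol regions overlapped an estradiol region (whole list 87.0%) and 6 overlapped an LY500307 region (85.7%, whole list 79.8%). Of the 16 LY500307 regions, 14 overlapped an estradiol region (87.5%, whole list 91.9%). In the other direction, 14 of 49 estradiol regions overlapped an LY500307 region (28.6%, 95% Wilson interval 17.8 to 42.4, for counting error only), and the whole list had 33.8%. The 12 estradiol regions with the highest folds, at 29.2 and above, were all found with LY500307, while of the other 37, at folds up to 19.1, only 2 were (5.41%). The dividing fold was taken from these regions after their values were seen, so the 12 of 12 is a description. In the whole estradiol list, 98.3% of regions at or above that fold and 21.2% of those below were shared with LY500307. Of the same 12 regions, 6 were also in the ethanol list, against 33.8% of the whole list at that height. The depth of the pools is unknown and they differ in list length, so absence from a shorter list does not show that a site was unbound.

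EREs were found at 7 of 49 estradiol regions (14.3%, 7.10 to 26.7), against 13.8% of the whole list. Within 1 kb of a coding TSS they were at 3 of 26 (11.5%), against 3.98%, and farther away at 4 of 23 (17.4%), against 17.7%. At any distance from a TSS, EREs were at 3 of 7 regions with ethanol, against 15.0%, and at 3 of 16 with LY500307, against 15.7%. The 3 shared EREs were those of the SLC29A1, SLC35B2 and BCL3 upstream sites, and the other 4 stood at sites found with estradiol alone. Median estradiol fold was 19.1 over the 7 regions with an ERE and 8.76 over the 42 without, and in the whole list 14.5 and 8.98. A kappaB element was found at 5 of 49 estradiol regions (10.2%, 4.44 to 21.8), against 3.96% of the whole list, at 2 of 7 ethanol regions, against 4.37%, and at 3 of 16 LY500307 regions, against 3.80%. All 5 were within 1 kb of a coding TSS, where 5 of 26 regions near these genes held one and 6.10% of the whole list did. AP-1 elements stood at 5 of 49 estradiol regions, against 13.8% of the list. Within 1 kb of a coding TSS they were at 1 of 26 (3.85%), against 4.18%, and farther away at 4 of 23 (17.4%), against 17.6%. These matches are letters in the sequence and do not show what held the receptor there.

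**Figure D4:**
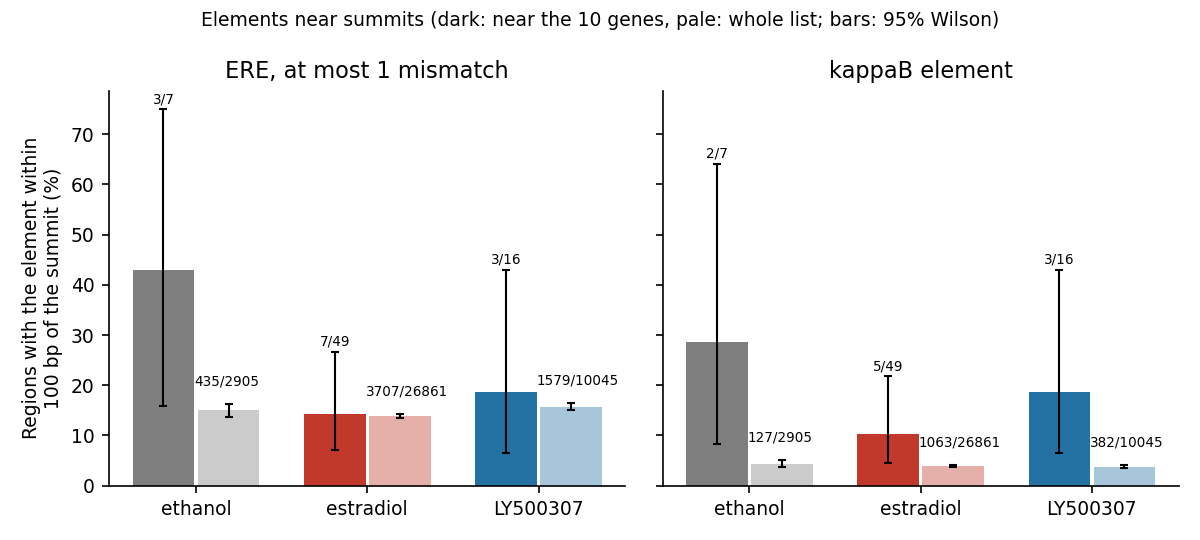
Percent of regions with an ERE (left) or a kappaB element (right) within 100 bp of the summit (y axis), for regions near the 10 genes (dark) and the whole list (pale) in each treatment, with 95% Wilson intervals and the counts above the bars. The ERE share of estradiol regions is 14.3% near the genes and 13.8% in the whole list, and the intervals near the genes are wide.

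The 50 kb limit set which sites were counted. The farthest site counted, the KAT5 promoter, lay 49049 bp from RELA. Just beyond the limit stood an estradiol region with a fold of 7.64 at 50.7 kb from BCL3 and one with a fold of 46.4 at 50.8 kb from NFKB2, which was also present with LY500307 at 12.9. The closest estradiol region beyond the limit of TNFAIP3, at 61.4 kb, had a fold of 39.5, higher than either region within it. The closest LY500307 region of TNFAIP3 also lay at 61.4 kb, with a fold of 9.49.

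Among 36 other genes of the pathway, 35 had an estradiol region within 50 kb (97.2%, against 74.5% of all coding genes), 26 an LY500307 region (72.2%, against 49.1%) and 14 an ethanol region (38.9%, against 22.7%). For the receptor genes TNFRSF1A, TNFRSF1B, IL1R1, TLR4, LTBR and CD40 the numbers were 6, 5 and 5 of 6, in that order of treatments. They were 11, 10 and 3 of 11 for the adaptors and ubiquitin ligases TRADD, TRAF2, TRAF3, TRAF6, RIPK1, BIRC2, BIRC3, RBCK1, RNF31, SHARPIN and BTRC. The kinase genes MAP3K7, TAB1, TAB2, TAB3, CHUK, IKBKB, IKBKG, MAP3K14, TBK1 and IKBKE, with the partners of these kinases, gave 9, 7 and 5 of 10. The other inhibitors NFKBIZ, NFKBID, TNIP1, TNIP2, CYLD, OTULIN, NKIRAS1, NKIRAS2 and COMMD1 gave 9, 4 and 1 of 9. The highest estradiol site of these groups was 18.5 kb upstream of TNFRSF1B, the gene of a tumour necrosis factor receptor, where the fold reached 160.0 (estradiol), 71.9 (LY500307) and 40.7 (ethanol). A site in an intron of TNIP1, whose product works with A20, stood at 118.9, 37.2 and 14.6, given in that order of treatments, and held an ERE. The highest kinase-group site, in the IKBKE window but nearest to RASSF5, had 146.0, 80.1 and 17.0. The highest in the adaptor group, in the TRAF2 window but nearest to EDF1, had 96.9 with estradiol and 36.5 with LY500307 and was not in the ethanol list.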

How the data were processed

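For each of the 3 treatments, 1 narrowPeak list of ER-beta regions was analysed. Named in the submitters' processing notes are hg38, DiffBind, MACS2 2.1.1.20160309 and Bowtie2 2.2.6, with no step given for each. The deposited fold is the authors' ratio of pooled ChIP signal to local background at the summit, and the deposited score is a display value that was not used. The deposited -log10 q was set by the authors' peak caller. The lowest deposited -log10 q was 2.02 for ethanol, 2.15 for estradiol and 2.11 for LY500307. Read totals are not in the lists, so the depth is unknown. Single libraries, inputs and DiffBind output were not analysed here.

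Only the main chromosomes, 1 to 22 with X and Y, were used (2905 of 2911 ethanol, 26861 of 26896 estradiol and 10045 of 10059 LY500307 records), with positions counted from 1. Gene bodies and TSSs came from GENCODE 44, for 19663 genes with a protein-coding transcript. An overlap of 1 bp or more made regions of different lists shared. Elements were sought on both strands in 201 bp centred on each summit, and the kappaB element was GGG, a purine, any base, A or T, 2 pyrimidines and CC. The element search and the distance rule were tested on simulated data. Intervals are 95% Wilson intervals. Computations used Python 3.11.15, numpy 2.4.6, pandas 2.3.3, scipy 1.17.1, pysam 0.24.0 and matplotlib 3.10.9.

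The members and lists were chosen with earlier results of these data known. The rule for naming took each gene's highest site per list, sites in all 3 lists, sites with an ERE or kappaB element, and sites in a member's promoter, and ranks were printed for the main ones. A selection of their sequences was printed, and 1 site of the rule is not reported here. Alternatives covered the distance, the assignment to the nearest TSS, lists of equal length, the overlap rule, and the element settings.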

Additional observations from a re-analysis of the deposited data

How the results depend on the processing

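Each value rests on 1 pooled list per treatment, so no replicate could be left out and no paired analysis was possible because the libraries are not separate in the lists. Of 89 values recomputed under other settings, 23 moved. The other 66 did not pass the limit for a move, which for a share is its 95% interval and therefore wide: the estradiol ERE share was 7.41% within 20 kb, the estradiol kappaB share was 6.41% within 100 kb and 18.2% in lists of equal length, and the ethanol ERE share was 28.6% with no mismatch. Within 20 kb, the 10 genes had 4 ethanol and 27 estradiol regions, and 8 of the 10 genes had an estradiol region. Within 100 kb they had 78 estradiol and 28 LY500307 regions. When only regions whose nearest coding TSS was that of the member were kept, 2 ethanol, 20 estradiol and 6 LY500307 regions remained. They lay at 2 genes with ethanol, 7 with estradiol and 3 with LY500307, and 100% of the LY500307 regions were shared with estradiol. No share over all coding genes is given for these gene counts. With the 2905 strongest regions of each list by -log10 q, there were 7 ethanol, 11 estradiol and 9 LY500307 regions. The genes with a region then numbered 4 with ethanol, 4 with estradiol and 4 with LY500307, where the full lists gave 4, 10 and 6. In those lists 9 of 11 estradiol regions (81.8%) were shared with LY500307, and 9 of 9 LY500307 regions (100%) were shared with estradiol. An ERE was at 3 of 11 estradiol regions (27.3%). No share over all regions of the equal-length lists is given here, so these values do not set the 10 genes apart from other strong regions. When an overlap had to cover at least 50% of each region, 28.6% of ethanol regions (2 of 7) were shared with estradiol. When sharing was judged by the distance between summits instead, 7 of 7 (100%) were shared. No share of the whole ethanol list is given for these overlap rules. With no mismatch the ERE share was 4.08% with estradiol, against 1.65% of the whole estradiol list, and the whole ethanol list had 2.38%. With at most 2 mismatches it was 85.7% with ethanol, 46.9% with estradiol and 68.75% with LY500307, against 39.8%, 44.6% and 46.9% of the whole lists. The kappaB share of estradiol regions was 4.08% within 50 bp of the summit and 22.4% over whole regions, against 1.82% and 7.37% of the whole list. The distance, nearest-TSS and equal-length settings count other sets of regions by construction, and the other settings change the definition of an overlap or an element.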

Other observations

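The sites near the 10 genes had a higher median GC content than the whole lists. Of their estradiol summits, 53.1% lay within 1 kb of a coding TSS, against 28.3% of the whole list. No GC comparison at like distance from a TSS is given here. The median GC content around the summit (100 bp on each side) was 61.2% for the 49 estradiol regions and 54.7% for the whole estradiol list, and with LY500307 it was 63.4% and 54.2%. The SP1 element GGGCGG, a common promoter element, was found at 12 of 49 estradiol regions (24.5%), against 20.8% of the whole list. All 12 were among the 26 regions within 1 kb of a coding TSS, where 50.7% of the whole list held one, and it was at 0 of the 23 farther regions, where 9.07% of the whole list held one. In the ethanol list all 4 regions within 1 kb of a TSS (NFKBIA, the SLC29A1 and SLC35B2 promoters and KAT5) held an SP1 element, against 54.7% of the whole ethanol list there. The single half-site GGTCA was at 32 of 49 estradiol regions (65.3%), against 71.2% of the list.

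Sites whose nearest coding TSS belonged to the member itself were not the higher ones. Their median estradiol fold was 8.62 over 20 regions, and it was 11.2 over the 29 regions nearer to another gene. The highest folds at the members' own starts were those of NFKBIA (70.2) and BCL3 (56.3), and the own promoters of NFKB1, NFKB2, RELA and REL had folds of 4.15 to 6.998.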
